A study of Mus musculus with 2 samples.

Results

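Epithelial cells were described inside a selection that was meant for another cell type. Single-cell RNA sequencing covered cells taken for CD11c out of the tumour microenvironment of PyMT mice, C57BL/6N strain, with the genotype label WT. In PyMT mice a transgene for the middle T antigen of polyoma virus gives rise to mammary tumours. No source used here gives the promoter of the transgene, the age of the mice or the number of animals behind a library. CD11c is the integrin chain encoded by Itgax, carried by many dendritic cells and macrophages, and the labels call the captured cells myeloid. There was 1 group with 2 libraries, called replicate 1 and replicate 2, and no untreated, normal-gland or CD11c-negative group entered. The labels do not state separate animals for them, so the spread between them may be technical. Whether the epithelial cells were malignant was not measured.

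The epithelial cells were the barcodes with at least 2000 UMIs (unique molecular identifiers, each counting a captured molecule once), at most 10% mitochondrial UMIs, at least 3 UMIs of Epcam, Krt8 and Krt18 together, under 0.3% of UMIs from Lyz2 and Cd74, and under 0.1% from Col1a1 and Col3a1. These were 103 of 1958 barcodes past the depth and mitochondrial limits in replicate 1 and 41 of 1215 in replicate 2, or 144 of 3173 in all. Their share was 5.26% in replicate 1 (exact 95% binomial interval 4.31% to 6.34%) and 3.37% in replicate 2 (2.43% to 4.55%), a mean of 4.32% ± 1.33 (SD, n = 2). The cells were thus chosen by their own UMI counts of Epcam, Krt8, Krt18, Lyz2, Cd74, Col1a1 and Col3a1, so every contrast with the remaining 1855 and 1174 barcodes is given as a description with no test. Intervals cover counting error only.

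The mammary epithelium holds an inner luminal layer, which includes hormone-sensing cells and the cells that become milk-secreting alveoli, and an outer layer of contractile basal cells. Luminal cells carry the keratins Krt8 and Krt18 and the adhesion molecule Epcam, while Krt5 and Krt14 belong to the basal layer. Milk proteins such as caseins and whey acidic proteins are made by alveolar cells under prolactin, which signals through Prlr and the factors Stat5 and Elf5.

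The libraries held 17369071 UMIs in replicate 1 and 13317214 in replicate 2. Epithelial cells contributed 1231107 UMIs in replicate 1 and 504028 in replicate 2, with a median of 8837 and 9363 UMIs per cell, against medians of 5521 and 7157 in the remaining barcodes. No epithelial barcode was shared between the libraries, and 2 barcode sequences passed the limits in both. Levels below are UMIs of a gene per 1000000 UMIs (CPM), summed over the cells of a library. They compare a gene between groups of cells. Levels of different genes are set side by side only because 3' counting gives about 1 UMI per captured transcript whatever its length.

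Values on either side of the limits were as follows. The lowest epithelial cell held 9 keratin and Epcam UMIs in replicate 1 and 5 in replicate 2, and the next held 14 and 13. The highest barcode outside on that condition alone held 2 and 1. On the myeloid side the highest epithelial cell had 0.257% Lyz2 and Cd74 UMIs in replicate 1 and 0.185% in replicate 2, and the nearest barcode outside had 0.376% and 0.978%. A further 35 barcodes in replicate 1 and 7 in replicate 2 had 3 or more keratin and Epcam UMIs but too many Lyz2 and Cd74 UMIs. Of these, 23 and 5 held only 3 to 5 keratin and Epcam UMIs, while 9 and 2 held 10 or more.

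**Figure D1:**
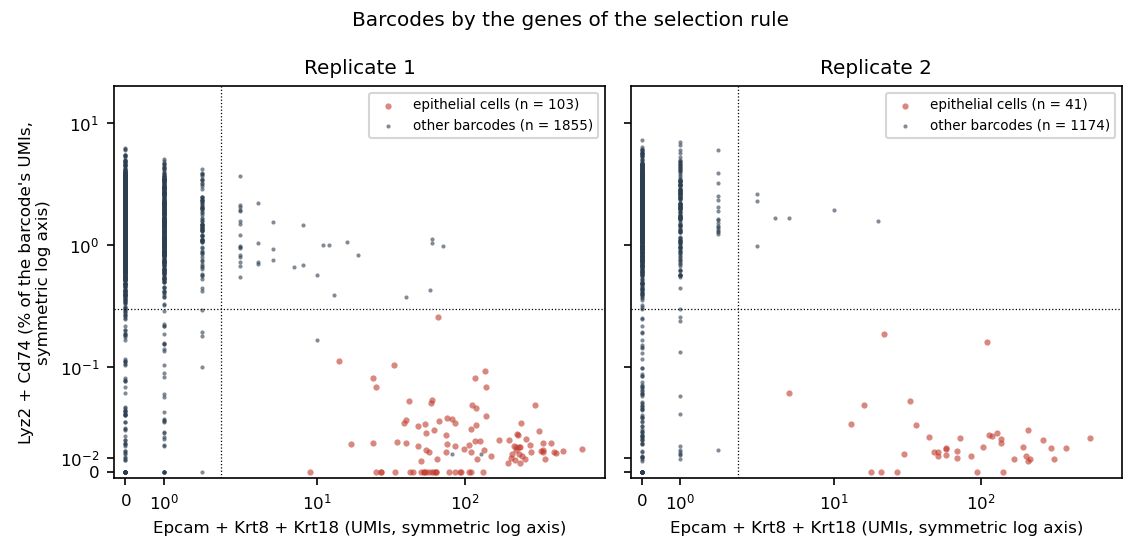
Each point is a barcode past the depth and mitochondrial limits, with summed Epcam, Krt8 and Krt18 UMIs on the x axis and the percent of UMIs from Lyz2 and Cd74 on the y axis, both on symmetric log axes. Dotted lines mark the limits; the 103 and 41 epithelial cells (red) lie at the lower right, and the dark points among them in replicate 1 exceed the limit on Col1a1 and Col3a1.

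The mitochondrial limit removed a larger share of epithelial barcodes than of the others. In replicate 1, 34 of 137 barcodes with the epithelial profile exceeded 10% (24.8%, interval 17.8% to 32.9%), against 53 of 1908 other barcodes (2.78%, interval 2.09% to 3.62%). In replicate 2, 43 of 84 epithelial barcodes exceeded it (51.2%, interval 40.04% to 62.3%), against 41 of 1215 others (3.37%, interval 2.43% to 4.55%). The median mitochondrial share of all barcodes with the epithelial profile was 6.72% in replicate 1 and 10.2% in replicate 2, and that of the cells kept was 5.06% and 6.14%.

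Secreted milk-type products were among the most abundant transcripts. The whole milk and secretory list summed to 50681 CPM in replicate 1 and 49218 CPM in replicate 2, against 4441 and 4225 CPM in the remaining barcodes. Wfdc18, a whey acidic protein family member encoded at chromosome 11, 83709015 to 83711348 (mm10, plus strand), had 18079 CPM in replicate 1 and 21729 CPM in replicate 2, against 241 and 128 CPM in the remaining barcodes. Csn3, the kappa-casein gene at chromosome 5, 87925579 to 87932665 (plus strand), had 12174 and 12470 CPM, against 152 and 41.1 CPM. Lcn2, the iron-siderophore binding lipocalin at chromosome 2, 32384633 to 32388252 (minus strand), had 6915 and 5791 CPM, against 93.7 and 16.8 CPM. Leaving out genes of ribosomes and mitochondria, these stood at ranks 2, 3 and 4 of the epithelial cells, behind the noncoding RNA Malat1 at 28926 and 25780 CPM. Wfdc18 and Csn3 had been named as markers of these cells from earlier results of the same data.

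The letters TATAAA, chosen after the sequence had been read, lie 31 bases before the RefSeq start of Wfdc18, which differs from the GENCODE start given above, the most abundant of these transcripts, and are in capitals below. They occur on either strand in 13.6% of 32851 promoter windows of the same length. The window runs from 250 bases before the start to 50 after it, chr11:83708754-83709053 on the plus strand of GRCm38.p6, and comes from RefSeq.
Wfdc18: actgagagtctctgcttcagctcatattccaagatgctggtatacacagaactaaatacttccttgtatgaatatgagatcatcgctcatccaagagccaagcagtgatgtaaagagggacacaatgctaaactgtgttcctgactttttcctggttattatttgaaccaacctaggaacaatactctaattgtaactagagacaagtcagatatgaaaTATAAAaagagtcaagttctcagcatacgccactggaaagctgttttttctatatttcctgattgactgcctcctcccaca
The letters TTCNNNGAA, the core bound by Stat5, were searched on both strands and occur in 8.30% of the windows. They were not found in this window of Wfdc18 or in the RefSeq window of Lcn2, which says nothing of sites elsewhere.

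Most other measured genes of the milk and secretory list were higher. Of its 26 genes, 18 had at least 50 UMIs over all passing barcodes in each library, and 14 of these were at least 2-fold higher in the epithelial cells in both libraries, with 0 lower and 4 neither (2 lower under TMM scaling). Over all 7985 genes past that minimum, 18.1% (1442 genes) were at least 2-fold higher and 14% (1117 genes) at least 2-fold lower. TMM scaling, which rescales the libraries to the bulk of genes, turned that balance to 599 higher and 1740 lower. A gene scarce elsewhere could reach the minimum through the epithelial cells alone and then had to be higher, so the counts of higher genes in this and the following lists are descriptions. Trf, the iron carrier transferrin, had 3724 CPM in replicate 1 and 2847 CPM in replicate 2, against 332 and 288 CPM in the remaining barcodes. Lactoferrin (Ltf) had 893 and 635 CPM, against 4.50 and 7.54 CPM. Lalba, the lactose synthase subunit, had 637 and 234 CPM, against 7.56 and 0.437 CPM.

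Other caseins had few or no UMIs. Csn2, beta-casein, had 0 UMIs in both libraries, in epithelial cells and in all other barcodes past the limits. Csn1s1, alpha-casein, had 11 UMIs in replicate 1 and 6 in replicate 2, and Wap, whey acidic protein, had 13 and 1. A count of 0 UMIs of Csn2 does not exclude an expected count of up to about 3 UMIs per library. Spp1 (osteopontin) had 2057 and 1238 CPM in epithelial cells, against 1881 and 1327 CPM, and fell below the remaining barcodes under TMM scaling. Cd14, which luminal progenitors and monocytes both carry, had 696 and 397 CPM, against 1367 and 2068 CPM.

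Keratins of simple epithelia were the abundant ones. Krt8 had 5480 CPM in replicate 1 and 4623 CPM in replicate 2, and Krt18 had 3620 and 3547 CPM; both belong to the selection rule, and so do the 2672 and 1619 CPM of Epcam. Krt19, a simple keratin that the rule did not use, had 2093 and 2111 CPM, against 9.08 and 2.95 CPM in the remaining barcodes. Krt7, another, had 324 and 331 CPM, against 2.46 and 0.219 CPM. All 5 keratins past the minimum were higher, Krt14 among them, against 18.1% of all 7985 genes. Krt5, the basal partner of Krt14, had 24 UMIs in replicate 1 and 0 in replicate 2, and Krt6b, Krt80 and Krt20 had 0 in both.

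Of 17 junction and adhesion genes past the minimum, 16 were at least 2-fold higher and 0 lower. The shares of all 7985 genes were 18.1% and 14%. Epcam, a gene of the selection rule, was among the 16 higher genes. The tight junction claudin Cldn3 had 1003 and 907 CPM, against 7.72 and 1.53 CPM in the remaining barcodes. Cldn4 had 685 and 498 CPM, and Cldn7 560 and 567 CPM. E-cadherin (Cdh1), the adherens junction protein, had 372 and 276 CPM, against 7.72 and 7.10 CPM. Each of these genes was detected in 84 or more of 103 cells in replicate 1 and in 28 or more of 41 in replicate 2.

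Transcription factors of epithelial identity followed. Of 10 regulators past the minimum, 6 were higher and 0 lower, against 18.1% and 14% of all 7985 genes. The 6 were Elf3, Ehf, Gata3, Sox9, Hes1 and Nfib. Sox9, a progenitor factor in several epithelia, had 534 CPM in replicate 1 and 651 CPM in replicate 2, against 10.2 and 2.19 CPM. Elf5, the alveolar factor, had 57.7 and 45.6 CPM (71 and 23 UMIs), with 0.764 and 0.109 CPM in the remaining barcodes, and fell below the minimum. Some luminal progenitor genes were present alongside. Kit, a receptor tyrosine kinase, had 71.5 and 117 CPM, and Aldh1a3, a retinaldehyde dehydrogenase, had 34.1 and 39.7 CPM in only 9 and 6 cells. Of the 10 genes of that list, 5 passed the minimum, with 4 higher and 0 lower. The whole list summed to 1103 and 923 CPM, against 1387 and 2091 CPM in the remaining barcodes, where its member Cd14 had the higher level.

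Genes of mesenchymal cells were low. Of 10 mesenchymal transition genes past the minimum, 0 were higher and 9 lower, against 18.1% and 14% of all 7985 genes. Vim, the intermediate filament vimentin, had 145 and 125 CPM, against 2230 and 2206 CPM in the remaining barcodes, of which 1697 and 1064 met the myeloid side of the gate. Fn1 (fibronectin) had 3.25 CPM in replicate 1 and 149 CPM in replicate 2, and 52 of its 75 UMIs in replicate 2 came from 1 cell. Basal genes were likewise held by few cells: 129 of 203 Acta2 UMIs in replicate 1 and 67 of 69 in replicate 2 lay in a single cell of each library, and Krt14 was found in 16 and 8 cells.

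**Figure D2:**
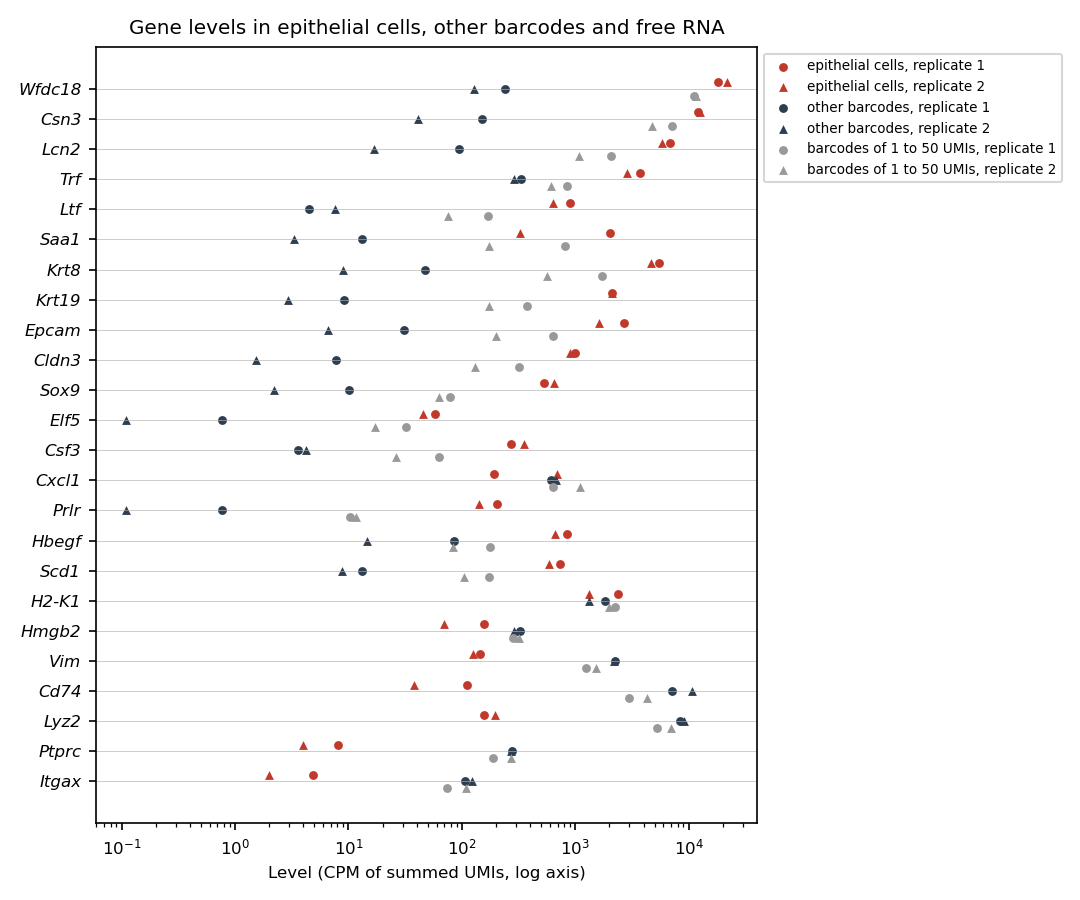
Level of 24 genes (CPM of summed UMIs, log axis) in epithelial cells (red), the other barcodes past the limits (dark) and barcodes of 1 to 50 UMIs (grey), with circles for replicate 1 and triangles for replicate 2. Milk-type, keratin and junction genes lie far right in epithelial cells, while Cd74, Lyz2, Ptprc and Itgax lie far left.

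The gene of the selected surface protein was almost undetected. Itgax had 6 UMIs in replicate 1, or 4.87 CPM (exact 95% interval 1.79 to 10.6), and 1 UMI in replicate 2, or 1.98 CPM (0.0502 to 11.1), against 106 and 122 CPM in the remaining barcodes. Ptprc, the pan-leukocyte phosphatase CD45, had 10 UMIs in replicate 1 and 2 in replicate 2, or 8.12 and 3.97 CPM, against 278 and 270 CPM. All 5 pan-leukocyte and CD11c genes were lower, against 14% of all 7985 genes. The rule limited Lyz2 and Cd74 in the epithelial cells, and 1697 and 1064 of the remaining barcodes met the myeloid side of the gate. Lower leukocyte genes were thus largely set in advance. Itgax and Ptprc were below their level in barcodes of 1 to 50 UMIs, which hold free RNA, at 74.1 and 109.9 CPM of Itgax and 189.5 and 269 CPM of Ptprc. Transcript counts do not measure the CD11c protein, and how these cells entered the selection was not tested.

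Leukocyte markers were low or at 0, while some other lists were not lower. The 10 macrophage markers summed to 989 CPM in replicate 1 and 722 CPM in replicate 2, against 28322 and 29418 CPM in the remaining barcodes, and all 10 were lower. The 10 dendritic cell markers summed to 1035 and 565 CPM, against 32850 and 40530 CPM, with 9 lower. Of all 7985 genes 14% were lower. The limit on Lyz2 and Cd74 largely set the direction of the macrophage and dendritic cell markers in advance. All 7 T and NK cell markers and all 4 B cell markers in the files had 0 UMIs. The 10 fibroblast markers summed to 340 and 276 CPM, against 515 and 790 CPM, with 5 of 8 past the minimum lower. Pdgfra, Pdgfrb and Dpt had 0 UMIs, while Dcn had 382 UMIs in 14 cells and 126 in 4, or 310 and 249.99 CPM, against 176 and 328 CPM. The neutrophil markers summed to 77.2 and 25.8 CPM, against 15.2 and 215 CPM. Of these, S100a8 had 76.4 and 23.8 CPM, against 2.55 and 104 CPM, and S100a9 had 0 UMIs in epithelial cells. The endothelial markers summed to 36.6 and 3.97 CPM, against 35.9 and 21.97 CPM, and the pericyte markers to 26.8 and 15.9 CPM, against 25.9 and 3.28 CPM. The part of other cells in these values was not tested.

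Some epithelial transcripts were also abundant in the free RNA, though the part of epithelial RNA in it was not estimated. In barcodes of 1 to 50 UMIs, too shallow to hold a captured cell, Wfdc18 had 11184 CPM in replicate 1 and 11617 CPM in replicate 2, which is 61.9% and 53.5% of its level in epithelial cells. Csn3 reached 58.6% and 38.3% of that level. Krt8 reached 31.1% and 12.2%, and Igfbp5 only 10.2% and 9.72%. The ratio between genes in free RNA therefore differed from that in the epithelial cells that were kept. Genes at low levels in the remaining barcodes, such as the 241 and 128 CPM of Wfdc18, lie far below this free RNA profile; their origin was not tested.

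Growth factor receptors and ligands included several of the epidermal growth factor system. Prlr, the prolactin receptor, had 206 CPM in replicate 1 and 143 CPM in replicate 2, against 0.764 and 0.109 CPM in the remaining barcodes. Of 11 receptors past the minimum, 6 were higher and 0 lower, with Egfr, Fgfr1, Kit, Lrp6 and Ddr1 besides Prlr. Hbegf, a ligand of Egfr, had 843 and 665 CPM, against 85.1 and 14.5 CPM. Cyr61, a matricellular protein, had 1552 and 1149 CPM, against 27.3 and 38.1 CPM. Of 12 ligands past the minimum, 4 were higher (Hbegf, Tgfb3, Ctgf, Cyr61) and 2 lower (Tgfb1, Gdf15). The shares over all genes were 18.1% higher and 14% lower.

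Of 19 genes past the minimum in the list of signals that act on myeloid cells, 3 were higher and 10 lower. The shares of all 7985 genes were 18.1% and 14%. The 3 higher genes were Csf3, Lif and Csf1. Csf3, the granulocyte colony-stimulating factor at chromosome 11, 98701263 to 98703629 (plus strand), had 274 CPM in replicate 1 (interval 245 to 305) and 351 CPM in replicate 2 (301 to 407), against 3.57 and 4.26 CPM. It was detected in 35 of 103 cells and 16 of 41 cells. The cytokine Lif had 161 and 175 CPM, against 6.28 and 4.59 CPM, and the macrophage growth factor Csf1 had 63.4 and 63.5 CPM, against 8.23 and 16.7 CPM.

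The 10 genes of that list that were lower included the chemokines Ccl2 and Cxcl16. Ccl2 had 57.7 and 31.7 CPM in epithelial cells, against 1541 and 530 CPM, and Cxcl16 had 84.5 and 101 CPM, against 599 and 678 CPM. Cxcl1 differed between the libraries, with 191 CPM in replicate 1 and 696 CPM in replicate 2, against 607 and 682 CPM. Ccl20 had 0 UMIs, and Il34 and Csf2 had 0 in replicate 1 and 1 in replicate 2.

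Genes of class I antigen presentation past the minimum were not at least 2-fold higher. H2-K1, a class I heavy chain that shares sequence with its relatives, had 2402 and 1329 CPM, against 1812 and 1321 CPM in the remaining barcodes, and fell below them under TMM scaling. B2m, its light chain, had 4057 and 2153 CPM, against 7294 and 6343 CPM. Of 15 genes of that list past the minimum, 0 were higher and 3 lower (8 lower under TMM scaling). The 3 were Psmb9 and the immune checkpoint ligands Cd274 and Cd47. Cd47 had 79.6 and 85.3 CPM, against 317 and 331 CPM. Of 20 interferon response genes, 2 were higher (Usp18 and Rtp4, but not under TMM scaling), 3 lower and 15 neither. Over all 7985 genes 18.1% were higher and 14% lower, and under TMM scaling 599 genes were higher and 1740 lower.

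In the lipid synthesis list, 6 of 14 genes past the minimum were higher and 1, Lpl, lower. The desaturase Scd1 had 728 and 583 CPM, against 13.2 and 8.85 CPM, and fatty acid synthase (Fasn) had 53.6 and 55.6 CPM, against 8.998 and 8.41 CPM. In the glycolysis and hypoxia list 7 of 21 were higher and 2 lower. Over all 7985 genes 18.1% were higher and 14% lower. The glucose transporter Slc2a1 had 270 and 157 CPM, against 37.5 and 45.6 CPM, while Ldha had 822 and 831 CPM, against 527 and 544 CPM, did not reach 2-fold and fell below under TMM scaling.

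For RNA of dividing cells, each cell was thinned to 2000 UMIs to put all on 1 depth. In replicate 1, 18 of 103 epithelial cells then had at least 2 UMIs of the G2 and M phase list (17.5%, interval 10.7% to 26.2%), against 28.8% of 1855 remaining barcodes (26.7% to 30.9%). In replicate 2 they were 3 of 41 (7.32%, interval 1.54% to 19.9%), against 21.6% of 1174 (19.2% to 24.0%). Without thinning the shares were 63.1% and 48.8%, against 60.5% and 57.8%. Mki67, a proliferation antigen, had 11 UMIs in replicate 1 and 3 in replicate 2. Hmgb2, another gene of that list, had more, with at least 171 UMIs in replicate 1 and at least 29 in replicate 2. The shares were not recomputed without Hmgb2, so its part in them was not tested. Of 15 G2 and M genes past the minimum, 0 were higher and 5 lower (12 lower under TMM scaling). Over all 7985 genes 14% were lower (1740 genes under TMM scaling).

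Dissociation-sensitive genes were abundant in both compartments. The immediate early and stress list summed to 12901 CPM in replicate 1 and 9372 CPM in replicate 2, against 8655 and 5998 CPM in the remaining barcodes. Of its 20 genes, 7 were higher and 1 lower (1 higher and 5 lower under TMM scaling). Over all 7985 genes 18.1% were higher and 14% lower, and under TMM scaling 599 genes were higher and 1740 lower. Ier3 had 1126 and 1597 CPM, against 434 and 291 CPM. The small heat shock protein Hspb1 had 1326 and 595 CPM, against 35.0 and 7.32 CPM. RNA made during cell isolation and RNA already in the tissue cannot be told apart here.

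Fibroblast-gate barcodes met the Lyz2 and Cd74 limit, exceeded that on Col1a1 and Col3a1 and had under 3 keratin and Epcam UMIs (21 in replicate 1 and 24 in replicate 2). Against them 10.5% of 7985 genes (839) were at least 2-fold higher in epithelial cells in both libraries and 9.09% (726) lower. With an added UMI of equal share in both sums, 1386 were higher and 622 lower. All 5 keratins and 15 of 17 junction genes past the minimum were higher there, and 9 of 10 mesenchymal genes were lower. The keratins include Krt8 and Krt18 and the junction genes include Epcam, by which both sets of barcodes were chosen, so their direction was set in advance. Both sets were also chosen by Col1a1 and Col3a1, so the direction of the mesenchymal genes was largely set in advance too. S100a6, a calcium-binding protein, had 4388 and 4813 CPM in epithelial cells, against 6316 and 6630 CPM in fibroblast-gate barcodes and 1315 and 1578 CPM in the remaining barcodes.

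Outside the lists, the highest ratios over the remaining barcodes went to Fgg and Fgb, fibrinogen chains known from liver, to Wfdc12, a further whey acidic protein relative, and to Rab25, an epithelial small GTPase. Fgg had 180 CPM in replicate 1 and 248 CPM in replicate 2, against 0.255 and 0.437 CPM. Of the Fgg UMIs, 220 of 222 and 124 of 125 lay in 1 group of 19 cells, led by Cited1. Wfdc12 had 139 and 194 CPM, against 0.255 and 0.219 CPM, and was found in 10 of 103 and 2 of 41 cells. Cxadr, a junctional virus receptor, had 159 and 179 CPM, against 1.53 and 0.219 CPM. The lowest ratios went to leukocyte genes, among them Cd74 (part of the rule), Bcl2a1b, Ly86 and Clec4a2. Bcl2a1b, an apoptosis regulator with near-identical copies among which reads may be split, had 8.12 and 9.92 CPM, against 1021 and 1268 CPM.

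The cells differed widely among themselves in secreted products. Over the thinned cells, 336 genes of at least 0.5 UMI per cell were ranked by the smaller of their variance-over-mean values in the 2 libraries, where random sampling alone gives about 1. Wfdc18 ranked 1, at 42.2 in replicate 1 and 53.3 in replicate 2, ahead of Spp1 (55.6 and 32.2), Csn3 (31.6 and 40.2) and Malat1 (31.7 and 26.7). Saa1 had 80.1 in replicate 1 but 18.2 in replicate 2. Single cells ranged from 0 to 92300 CPM of Wfdc18 in replicate 1, with a median of 9859 CPM, and from 0 to 83682 CPM in replicate 2, with a median of 14730 CPM. Csn3 ranged from 0 to 100570 CPM (median 12702) and from 0 to 82012 CPM (median 10001). Saa1 was concentrated in fewer cells, with medians of 0 CPM and maxima of 94609 and 13788 CPM.

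Some milk-type genes varied together across cells and opposite to Krt19 and S100a6, and others did not. As a description over cells that share a library and its free RNA, Pearson correlations of Csn3 with Trf were 0.729 over 103 cells and 0.827 over 41, and of Csn3 with Lcn2 0.709 and 0.782. S100a6 and Krt19 correlated at 0.769 and 0.655. Lcn2 correlated with S100a6 at -0.618 and -0.649, and Csn3 with Krt19 at -0.535 and -0.365. In contrast, Ltf with Trf gave 0.052 and 0.163, Csn3 with Slpi -0.091 and 0.280, Wfdc18 with Spp1 -0.126 and 0.137, and Krt19 with Ltf 0.063 and -0.017. These cells include the Cited1-led group described below, whose Krt19 medians were 8135 and 10802 CPM, against 88.1 and 0 CPM in the other epithelial cells. The part of that group in the correlations was not tested.

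Clustering of the 144 cells gave 8 groups of 9 to 26 cells. The genes that lead a group also formed it, so they are named and not tested. Group 5 was led by Cited1, Fam25c, R3hdml, Fgb, Stc2, Upk3a, Pcp4 and Fgg. It held 13 of 103 cells in replicate 1 (12.6%, interval 6.89% to 20.6%) and 6 of 41 in replicate 2 (14.6%, interval 5.57% to 29.2%). The same 19 cells formed a group at Leiden resolution 0.5 and 1.5.

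Cited1, a transcriptional coregulator found in hormone-sensing luminal cells of the mouse gland (chromosome X, 102247381 to 102252181, minus strand), had 627 UMIs in 12 of the 13 cells and 30 UMIs in 4 of the 6, against 0 UMIs in all 90 and 35 other epithelial cells. Against a floor of 3 UMIs in those other cells this is at least 785-fold and 46.9-fold higher. Fam25c had 411 UMIs in 13 of 13 cells and 68 in 6 of 6, with 0 in the others. These barcodes had more UMIs, with a median of 20656 UMIs in replicate 1 and 13044 in replicate 2, against 7170 and 8532 in the other epithelial cells; the part of this in the other differences was not tested.

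Of 3261 genes with at least 20 UMIs in the epithelial cells of each library, 4.14% (135) were at least 2-fold higher in the group in both libraries and 6.87% (224) lower. The same genes formed the groups, and a gene found mainly in the group could reach that minimum through it alone, so no count over a list is read here. Of the 13 genes of the hormone-sensing list, 4 reached the minimum: Cited1, Prlr, Ly6a and Ly6d. Prlr had 765 and 610 CPM, against 56.6 and 43.3 CPM in the other epithelial cells. Ly6a (Sca-1), a surface antigen of some luminal cells, had 3468 and 2113 CPM, against 57.6 and 164 CPM. Ly6d had 3997 and 1164 CPM, against 79.2 and 21.7 CPM.

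Steroid receptor genes had few UMIs, below the minimum in at least 1 library. Foxa1, a partner factor of the oestrogen receptor, had 38 UMIs in 13 of 13 cells and 11 in 5 of 6, against 3 and 0 UMIs in the other 90 and 35. Pgr, the progesterone receptor, had 17 and 12 UMIs, against 0 and 1. Esr1, the oestrogen receptor, had 21 and 3, against 5 and 1. The progesterone target Wnt4 had 54 and 7, against 3 and 0. Areg, an Egfr ligand, had 587 CPM in replicate 1 but 45.2 CPM in replicate 2, against 20.6 and 21.7 CPM.

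Further genes split the epithelium along this line. Krt19 had 8663 CPM in the group in replicate 1 and 10710 CPM in replicate 2, against 344 and 279 CPM in the other epithelial cells, and per cell its medians were 8135 and 10802 CPM, against 88.1 and 0 CPM. Wfdc2 had 4662 and 3016 CPM, against 13.4 and 86.6 CPM. Cxcl17, a mucosal chemokine, had 475 and 249 CPM, against 3.09 and 4.81 CPM. Krt8 and Cldn3, in contrast, differed less than 2-fold, with 7431 and 7580 CPM of Krt8 against 4960 and 3993 CPM.

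**Figure D3:**
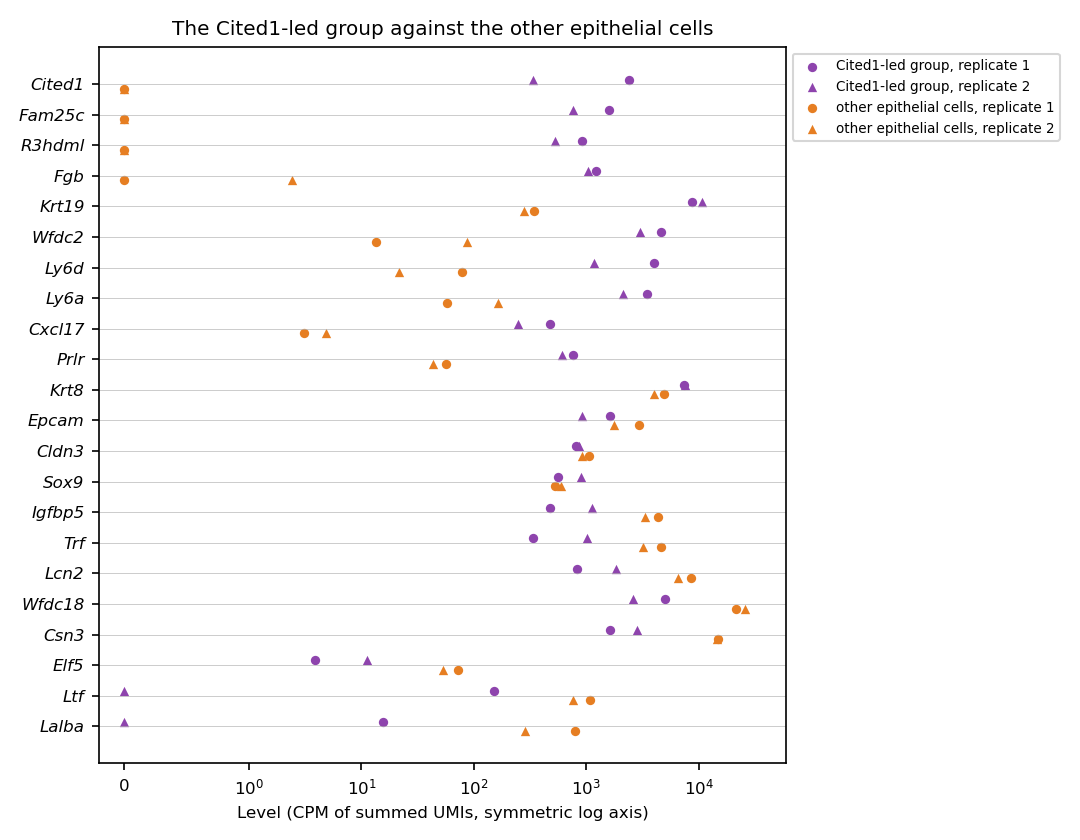
Level of 22 genes (CPM of summed UMIs, symmetric log axis) in the Cited1-led group (purple, 13 and 6 cells) and in the other epithelial cells (orange, 90 and 35 cells), with circles for replicate 1 and triangles for replicate 2. Genes at the top are higher in the group, Krt8, Epcam, Cldn3 and Sox9 lie close together, and milk-type genes at the bottom are lower in the group.

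Several milk-type and progenitor genes were at least 2-fold lower in the Cited1-led group in both libraries. Csn3 had 1614 and 2858 CPM, against 14986 and 14517 CPM in the other epithelial cells. It was detected in 9 of 13 and 3 of 6 cells, against 88 of 90 and 30 of 35. Per cell its medians were 96.8 and 43.4 CPM, against 14635 and 12817 CPM, and the group maxima were 8532 and 10858 CPM. Lcn2 had 830 and 1841 CPM, against 8535 and 6633 CPM, and per cell its medians were 0 and 0 CPM, against 7769 and 5767 CPM. Summed levels of Csn3 and Lcn2 thus lay above those of a typical cell of the group. Spp1 had 61.8 and 67.8 CPM, against 2589 and 1487 CPM. Elf5, Kit and Aldh1a3 of the luminal progenitor list were lower too. Aldh1a3 had 0 UMIs in the group in both libraries. Ccnd1, a cyclin of the G1 phase, was higher at 305 and 158 CPM, against 77.1 and 67.4 CPM.

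**Figure D4:**
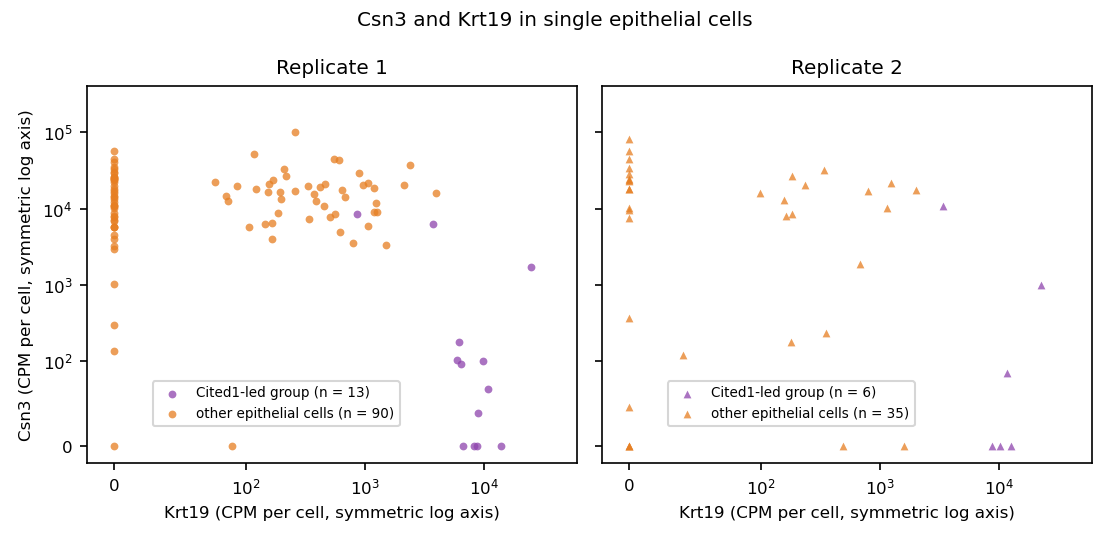
Each point is an epithelial cell, with Krt19 on the x axis and Csn3 on the y axis (CPM per cell, symmetric log axes), for replicate 1 (left) and replicate 2 (right). Cells of the Cited1-led group (purple) lie at 853 to 24681 CPM of Krt19 in replicate 1 and at 3376 to 22328 CPM in replicate 2, and most of them have little Csn3.

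Dcn, the fibroblast proteoglycan decorin, had 370 UMIs in 10 of the 13 cells of the group and 52 in 2 of the 6, against 12 and 74 UMIs in the other epithelial cells. Col1a2 had 1 and 0 UMIs in the group, and the fibroblast markers Pdgfra, Pdgfrb and Dpt had 0. The macrophage markers summed to 521 and 452 CPM in the group, within the 372 to 4443 CPM that the other groups spanned. Without the group, Ly6a in epithelial cells lay below the remaining barcodes, at a log2 ratio of -1.39.

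Of the other 7 groups, group 3 had shares whose intervals did not overlap between the libraries, and the intervals of the rest overlapped. Group 3, led by Ltbp2 and Lgals1, held 5 cells in replicate 1 (4.85%, interval 1.59% to 10.97%) and 15 in replicate 2 (36.6%, interval 22.1% to 53.1%). Group 2, led by the acute-phase genes Saa2 and Saa1 with Btn1a1 and Lalba, held 22 of 103 cells in replicate 1 (21.4%, interval 13.9% to 30.5%) and 2 of 41 in replicate 2 (4.88%, interval 0.596% to 16.5%). Group 4, led by Ltf, held 17 and 2 cells. Group 7, led by the carbonic anhydrase Car6, held 12 and 1. Group 6, led by Scgb2b27, held 6 and 8, and group 8, led by Cxcl1, held 5 and 4. Leading genes were ranked over both libraries together, and some were not higher in each. Cxcl1 in group 8 had 149 CPM, against 192 CPM in the other epithelial cells, in replicate 1, and 4504 against 471 CPM in replicate 2. Ltf in group 4 had 4375 against 355 CPM in replicate 1 but 566 against 643 CPM in replicate 2. In replicate 2, Car6 in group 7 and Btn1a1 in group 2 had 0 UMIs. A group mostly of 1 library may be a feature of that library.

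**Figure D5:**
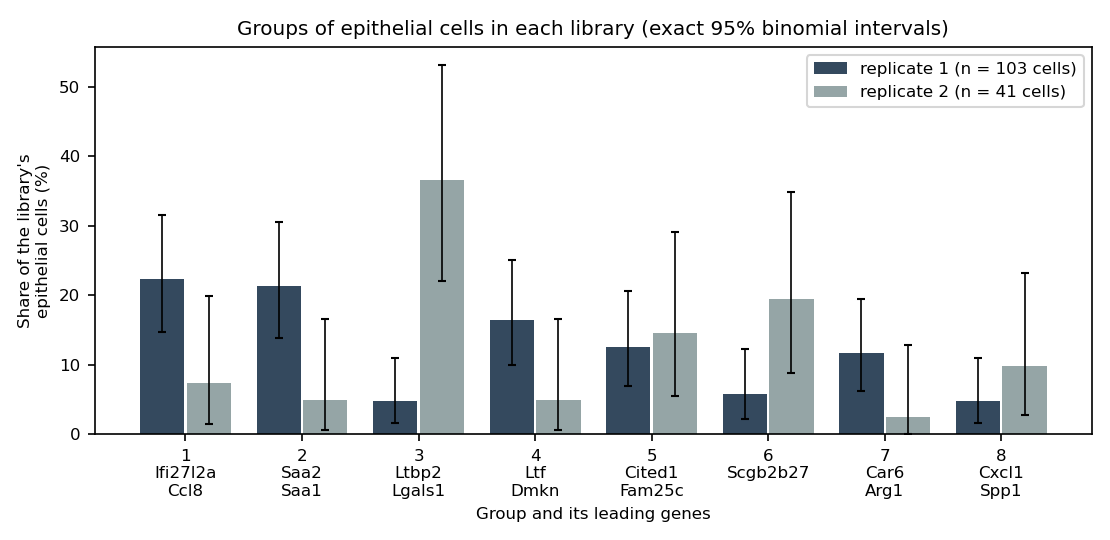
Share of each library's epithelial cells (%, y axis) in 8 groups (x axis, with leading genes), for replicate 1 (dark, 103 cells) and replicate 2 (light, 41 cells), with exact 95% binomial intervals. Group 5, led by Cited1, has 12.6% and 14.6%, and the intervals of group 3 alone do not overlap between the libraries.

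Some groups carried myeloid RNA. In group 1, led by Ifi27l2a, Ccl8, Srgn and Ifit3, the macrophage markers summed to 2042 CPM over 23 cells and 3339 CPM over 3, and the dendritic cell markers to 2551 and 646 CPM. One cell of replicate 1 held 48.9% of all H2-Aa UMIs of the epithelial cells, and 1 cell of replicate 2 held 87.5% of the Ccl8 UMIs. The single cell of group 7 in replicate 2 had 13328 CPM of dendritic cell markers. The part of myeloid RNA in the leading genes of these groups was not tested.

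Group 2 was led by a pair of neighbouring genes, though in replicate 1 Saa1 was found in 16 and Saa2 in 14 of its 22 cells. Saa1 (chromosome 7, 46740497 to 46742980, minus strand) and Saa2 (46751790 to 46754313, plus strand) encode serum amyloid A, an acute-phase protein. Saa1 had 2469 UMIs in 39 cells of replicate 1 and 163 UMIs in 7 cells of replicate 2, and Saa2 had 756 UMIs in 26 cells and 66 in 5. Of the cells with at least 10 UMIs of Saa1, 17 of 20 and 3 of 3 also had Saa2, while 60 of 103 and 33 of 41 cells had neither. Their transcripts are 87.3% identical over a global alignment, with a longest shared stretch of 76 bases, so reads may be misassigned between them and the values of each gene are uncertain.

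The promoter windows of this pair are shown because both genes were high in the same cells. They are 95.3% identical over 301 aligned positions. Capitals mark TTGCNNAA, the letters of a C/EBP site, which were picked after the sequences had been read and occur on either strand in 10.8% of windows. The match begins 182 bases before the start of Saa1 and 183 before that of Saa2. TTCNNNGAA and an NF-kB consensus (in 8.46% of windows) were not found in these windows. Both come from RefSeq, GRCm38.p6, chr7:46742931-46743230 on the minus strand for Saa1 and chr7:46751583-46751882 on the plus strand for Saa2.
Saa1: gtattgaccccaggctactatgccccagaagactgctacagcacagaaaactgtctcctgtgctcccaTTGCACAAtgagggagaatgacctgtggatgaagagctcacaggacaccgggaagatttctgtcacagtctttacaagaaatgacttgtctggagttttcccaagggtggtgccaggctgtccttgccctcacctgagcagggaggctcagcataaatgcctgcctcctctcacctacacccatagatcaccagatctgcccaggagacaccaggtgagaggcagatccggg
Saa2: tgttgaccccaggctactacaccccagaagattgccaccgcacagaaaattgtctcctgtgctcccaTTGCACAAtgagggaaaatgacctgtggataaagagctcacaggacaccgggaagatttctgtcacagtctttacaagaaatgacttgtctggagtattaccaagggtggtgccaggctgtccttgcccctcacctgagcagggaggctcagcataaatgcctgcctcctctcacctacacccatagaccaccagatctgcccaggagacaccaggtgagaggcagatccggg

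Between the libraries, over 1320 genes of at least 100 CPM in either library, the median size of the log2 ratio was 0.25. With non-overlapping exact intervals, 3.33% (44 genes) were at least 2-fold higher in replicate 1 than in replicate 2, and 1.36% (18 genes) lower. Of these 62 genes, 18 differed the same way by 2-fold in the remaining barcodes of the libraries. The share of all 1320 genes that did so is not given here, so 18 is not read as many or few. With 1 library on each side there is no test.

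Several of these differences rested on few cells. Cited1 had 509 CPM in replicate 1 and 59.5 CPM in replicate 2, a ratio of 8.56 (interval 5.93 to 12.8), while the share of cells in its group was 12.6% and 14.6%. Saa1 had 2006 CPM in replicate 1 and 323 CPM in replicate 2, a ratio of 6.20 (5.29 to 7.31). The antiviral gene Ifit1 had 136 and 23.8 CPM, and the remaining barcodes differed less, with 45.8 and 23.6 CPM.

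In the other direction, Scgb2b27, a secretoglobin with close relatives among which reads may be split, had 554 CPM in replicate 1 and 3153 CPM in replicate 2, where 1 cell held 738 of 1589 UMIs. Without the cell with most UMIs in each library it had 318 and 1901 CPM. Ptgs2, the inducible cyclooxygenase, had 34.9 and 145 CPM, and the remaining barcodes had 48.6 and 138 CPM. Without the cell with most UMIs, Postn (periostin) had 16.4 and 4.09 CPM, against 61.7 and 149 CPM with it, so that its direction between the libraries turned.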

How the data were processed

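The values the authors deposited are raw counts of UMIs (27998 genes by 737280 barcodes in each of 2 libraries, 10x 3' chemistry version 2 per the labels). The submitters' processing notes name Cell Ranger 2.2.0 and mm10; other settings are not known here. The members and gene lists were chosen with earlier results of these data known. UMIs were summed per library over epithelial cells and over the other barcodes past the limits. A gene was called at a ratio of at least 2-fold in both libraries, with 1 UMI added to each sum, among genes of at least 50 UMIs in each library. Because the sums differ in size, adding 1 UMI to each raises the ratio of scarce genes. No test was run. Intervals are exact at 95%. The ratio code was tested on simulated data.

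Groups came from log values scaled to 10000 UMIs per cell, 1500 variable genes, 15 principal components, 10 neighbours and Leiden resolution 1 (scanpy 1.11.5, leidenalg 0.10.2). TMM factors came from edgeR 4.0.16. Doublets were left in and removed in an alternative. Gene positions came from GENCODE M21 (GRCm38). A rule named 131 genes: those of the selection, the highest levels and ratios of each list, the highest and lowest ratios outside the lists, the most variable, and the largest differences between libraries. Other genes in the text, and the contrasts of the Cited1-led group, were chosen after their values were seen.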

Additional observations from a re-analysis of the deposited data

How the results depend on the processing

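The number of epithelial cells ranged from 41 to 103 when 1 library was left out, and was 67 with a mitochondrial limit of 5%; under the other limits tried and with the highest Scrublet scores removed it stayed within 1.5 times of 144. TMM scaling lowered every log2 ratio over the remaining barcodes, by 0.61 in replicate 1 and 0.75 in replicate 2, moved the median over all genes to -0.30 from 0.38, and gave 599 genes higher and 1740 lower. Under it 1 stress, 0 interferon and 0 G1 genes were higher, 8 antigen presentation and 12 G2 and M genes were lower, and Ldha, H2-K1, Fos and Vegfa turned to below the remaining barcodes, while milk, keratin and regulator counts of higher genes were unchanged. With no minimum 18442 genes were counted higher, a setting that adds the scarce genes whose ratio the added UMI raises. With at least 200 UMIs 405 were higher. At 4-fold 427 were higher and 677 lower. Leaving out a library gave 2332 to 2407 genes higher and 1372 to 1508 lower.

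Against fibroblast-gate barcodes, no minimum gave 1289 higher and 1850 lower, leaving out a library 1623 to 2062 higher and 1058 to 2053 lower, and an added UMI of equal share (chosen after seeing the data) 1386 higher. For the Cited1-led group, leaving out a library gave 326 to 697 higher and 476 to 821 lower. Leaving the group out (also chosen after seeing the data) left 32 genes lower in replicate 1 than in replicate 2 and put Ly6a at -1.39 on the log2 scale over the remaining barcodes. Against myeloid-gate barcodes alone, the log2 ratio of Col3a1 stood at 0.45 and Col1a1 at 0.088 on the log2 scale. The share of cells with G2 and M UMIs was 55.9% without thinning, and 7.32% to 17.5% without a library. Resolution 0.5 gave 4 groups. In each case the cause was not tested. No paired analysis was possible because no test was run; every ratio over the remaining barcodes was formed within a library.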

Other observations

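Csf3 and Lif were found in cells of all 8 groups. Csf3 had 741 and 894 CPM in group 4, led by Ltf, and 154 and 22.6 CPM in the Cited1-led group. Krt14, of the basal layer, had 1 and 0 UMIs in the Cited1-led group, against 343 and 66 UMIs in the other epithelial cells.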
